A study of Mus musculus with 2 samples.

Results

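The genes described here are 32 genes of sterol and fatty acid synthesis, out of 27874 gene symbols in the deposited table of the mouse colon. They are a named list of enzymes and regulators of both pathways: 17 enzymes of sterol synthesis, 6 genes that control or carry sterols, and 9 genes of fatty acid synthesis. All 32 were in the table, and all 32 passed the filter on low values, a mean of at least 2.31 CPM (reads scaled to a library total of 1000000).

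Poly(A)-selected RNA labelled as colon lamina propria, the connective tissue under the gut lining, came from mice of 2 genotypes on a C57BL/6J background. The K14/hyal1 genotype takes its name from the keratin 14 promoter, active in basal skin epithelium, and from Hyal1, a hyaluronan-cleaving enzyme. The other genotype is labelled Control. Each had 1 library; age, time of collection and the number of animals pooled are unknown here. Because neither group had a second library, no difference could be tested: each value below compares a pair of libraries, and bracketed ranges give the exact 95% counting error only.

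The pathways share a start and a switch. Acetyl-CoA is built through mevalonate into isoprenoids, squalene, lanosterol and at last cholesterol, or through malonyl-CoA into palmitate, which is then elongated and desaturated. The transcription factors of the SREBP family are held in the endoplasmic reticulum by Scap and the Insig proteins while sterols are plentiful. When sterols run short they are cut free, and they then switch on most of the genes named here.

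Stretches of 5 promoters are shown first, because they carry the letters that most of these genes have in common upstream of the start. They are those of Hmgcs1, which has the strict sterol element, of both SREBP genes, whose levels differed in opposite directions, of Fasn, the central fatty acid enzyme, and of Lss, which had the lowest ratio. The letters are from RefSeq (GRCm38.p6), 5′ to 3′ on the gene's strand and outside annotated exons. Capitals mark sterol elements and the CCAAT box, on either strand. The Hmgcs1 stretch is chr13:119690151-119690350 (plus strand), that of Srebf1 chr11:60222582-60222781 (minus strand) and that of Srebf2 chr15:82147019-82147180 (plus strand). The Fasn stretch is chr11:120824548-120824747 (minus strand) and that of Lss chr10:76531388-76531587 (plus strand).
Hmgcs1: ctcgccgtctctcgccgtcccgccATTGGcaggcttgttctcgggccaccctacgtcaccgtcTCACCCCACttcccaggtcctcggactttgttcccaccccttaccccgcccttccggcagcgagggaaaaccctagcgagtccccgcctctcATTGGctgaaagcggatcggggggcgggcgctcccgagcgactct
Srebf1: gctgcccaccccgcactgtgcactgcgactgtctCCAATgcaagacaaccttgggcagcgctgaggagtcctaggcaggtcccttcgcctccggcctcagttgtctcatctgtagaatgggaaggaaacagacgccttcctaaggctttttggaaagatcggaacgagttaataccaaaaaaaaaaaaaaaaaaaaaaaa
Srebf2: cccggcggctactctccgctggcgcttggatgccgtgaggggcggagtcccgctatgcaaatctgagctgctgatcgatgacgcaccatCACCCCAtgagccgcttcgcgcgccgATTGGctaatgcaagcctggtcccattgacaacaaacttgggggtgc
Fasn: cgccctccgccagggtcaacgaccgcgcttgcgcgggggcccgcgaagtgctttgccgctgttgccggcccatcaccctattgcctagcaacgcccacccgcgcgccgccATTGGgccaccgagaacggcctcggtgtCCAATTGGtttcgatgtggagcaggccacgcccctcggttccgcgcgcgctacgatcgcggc
Lss: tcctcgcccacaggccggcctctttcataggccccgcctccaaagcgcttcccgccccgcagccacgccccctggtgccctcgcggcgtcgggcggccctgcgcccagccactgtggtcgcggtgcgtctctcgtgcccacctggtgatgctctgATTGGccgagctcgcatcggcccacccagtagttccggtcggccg
In Hmgcs1 the sterol element begins 137 bases before the start, between CCAAT boxes at 176 and 45 bases. In Srebf2 a looser sterol element begins 161 bases before the start and a CCAAT box 135 bases before it. Positions are counted from the RefSeq start of each gene, which not every stretch reaches. The Srebf2 stretch covers 250 to 89 bases before that start, and the Lss stretch 217 to 18. Fasn shows 3 CCAAT boxes, of which the pair nearest the start overlap on opposite strands, while the Srebf1 and Lss stretches each show a single box. Srebf1 also had a window at another start, not shown here, with a CCAAT box 30 bases before that start.

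The CCAAT box, which binds the factor NF-Y, a known partner of the SREBP proteins, was the commonest of the letters searched. Windows from 250 bases before to 50 after each start were available for 26 of the 32 genes; those of Sqle, Fdft1, Fdps, Stard4, Scd1 and Scd2 were not matched. CCAAT was found on either strand in 22 of 26, or 84.6%, against 42.3% of 17492 protein-coding genes and 37.4% of all 32851 windows. CACGTG was found in 6 of 26, or 23.1%, against 8.91% of protein-coding genes. The strict sterol element TCACNCCAC was found in Hmgcs1, 1 of 26, against 1.41%. Its core CACNCCA, which lies inside the strict element, was found in 7 of 26, or 26.9%, against 20.2%. Genes with CCAAT had log2 ratios from -0.53 to 0.65, and the 4 without it (Scap, Acat2, Acaca and Elovl6) from -0.23 to 0.59, so both sets held genes on each side of equality. A match describes letters in a window and says nothing of binding.

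The libraries differed in depth, with 29020125 reads implied for K14/hyal1 and 61105127 for Control, and 3 reads were worth 0.103 and 0.0491 CPM. Hyal1 itself had 3.77 CPM in K14/hyal1 and 3.36 CPM in Control, and Krt14 had 0.517 and 0.507 CPM. Epithelial RNA was abundant in material labelled lamina propria: 10 epithelial markers summed to 4059 CPM in K14/hyal1 and 4755 CPM in Control. The markers were split: 5 of the 10 had a ratio above 1, the highest being Krt18 (108 and 74.8 CPM), and the rest lay below 1. Of those below, Slc26a3 (241 and 603 CPM) and Muc2 (433 and 1019 CPM) were over 2-fold lower in K14/hyal1. Each 2-fold count here is on the log2(CPM + 1) scale. Of 8 fibroblast markers, which summed to 947 CPM in K14/hyal1 and 385 CPM in Control, 6 were over 2-fold higher. Of the rest, Col1a2 (103 and 67.8 CPM) was higher and Col1a1 (28.7 and 42.0 CPM) lower in K14/hyal1, each by less than 2-fold. Of 6 macrophage markers, which summed to 121 CPM in K14/hyal1 and 34.7 CPM in Control, 5 were over 2-fold higher. Markers of a sublingual type of gland summed to 0.172 CPM in K14/hyal1 and 1479 CPM in Control, with Dcpp1 and Dcpp3 at 0 in K14/hyal1 and all 6 over 2-fold lower. Fat and liver are the organs best known for fatty acid synthesis. The 10 fat cell markers summed to 79.6 CPM in K14/hyal1 and 83.7 CPM in Control, but Adipoq had 0.138 and 0.18 CPM, Plin1 0.0689 and 0.0982 CPM, and Lep was at 0 in K14/hyal1. Of the 4 past the filter, Lpl and Fabp4 were over 2-fold higher and 0 were 2-fold lower. The other 2, Plin4 (24.8 and 35.7 CPM) and Pck1 (37.2 and 40.5 CPM), were lower in K14/hyal1 by less than 2-fold. The 4 liver markers summed to 16.2 CPM in K14/hyal1 and 10.8 CPM in Control, nearly all Ttr, with Alb at 0 in K14/hyal1. The 5 basal skin markers summed to 1.21 CPM in K14/hyal1 and 1.898 CPM in Control, with Dsg3 at 0 in K14/hyal1. The part of this mixture in the values below was not tested, and fewer cells of a type cannot be told apart from less RNA per cell.

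None of the sterol and fatty acid synthesis genes reached a 2-fold difference, a count near the background for a list of this size. At 2-fold on the log2(CPM + 1) scale, 0 of 32 were higher and 0 lower in K14/hyal1, where 3.75% of 13558 genes past the filter were higher and 1.54% lower. At 1.5-fold, 2 of 32 were higher and 0 lower, against 17.7% and 4.89% of all genes. Their median log2 ratio was 0.18, with quartiles of -0.11 and 0.35, against 0.21 for all genes, with quartiles of -0.07 and 0.48. The quartiles were thus near those of all genes, but the tails of all genes were not reached. Each of the 32 fell between the 5th and the 95th percentile of all genes, at log2 ratios from -0.53 to 0.65. The plain CPM ratio was above 1 for 21 of 32, against 69.6% of all genes. Because most genes lay above equality, each gene is also read against the median gene, whose plain ratio was 1.18: the log2 ratio was above that of the median gene for 15 of the 32 and below it for 17.

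**Figure D1:**
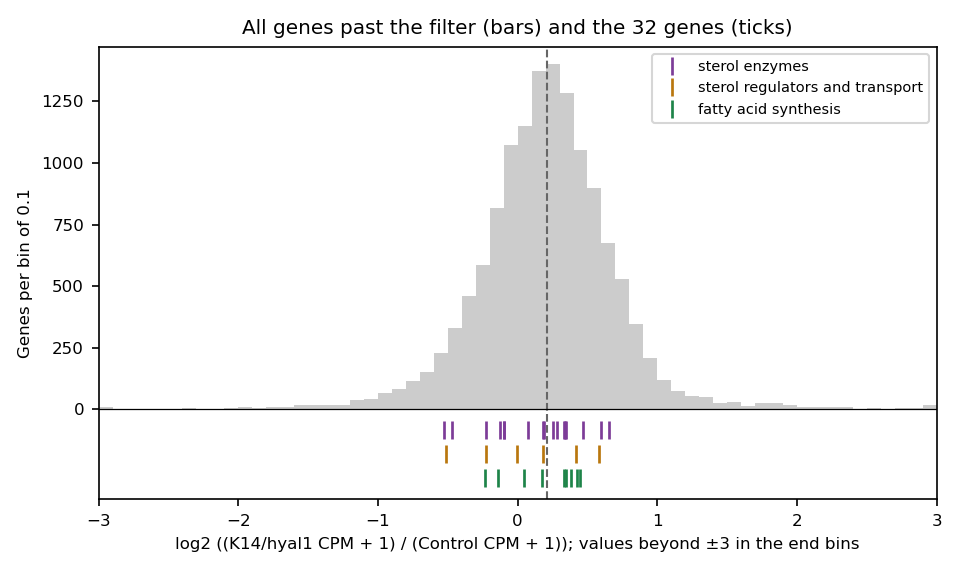
Log2 ratios of K14/hyal1 over Control, with 1 CPM added, for 13558 genes past the filter (bars, genes per bin of 0.1) and for the 32 genes as ticks under the axis, coloured by role; the dashed line is the median of all genes, 0.21. The ticks span -0.53 to 0.65, inside the bulk of the distribution.

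The SREBP genes themselves differed in opposite directions. Srebf1, whose products favour fatty acid genes, had 48.5 CPM in K14/hyal1 (45.9 to 51.05) and 32.1 CPM in Control (30.7 to 33.5), a ratio of 1.51 (1.41 to 1.62). Srebf2, whose product favours sterol genes, had 42.2 CPM in K14/hyal1 (39.9 to 44.7) and 60.7 CPM in Control (58.7 to 62.7), 1.44-fold lower (1.35 to 1.53). Srebf1 was therefore above Srebf2 in K14/hyal1, at a CPM ratio within the library of 1.15 (1.06 to 1.24), and below it in Control, at 0.529 (0.501 to 0.559). That order does not depend on how the libraries are scaled to each other, since each ratio is taken within 1 library. Srebf1 stood at percentile 82.0 of all genes and Srebf2 at percentile 6.03, the highest and the lowest of the 6 regulators. Srebf1 lies at chr11:60199089-60222581 and Srebf2 at chr15:82147181-82205379 in GENCODE M21 on mm10.

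The escort and the brakes of the SREBP proteins lay between these. Scap, which carries them to the Golgi for cleavage, had 22.3 CPM in K14/hyal1 and 26.2 CPM in Control, a ratio of 0.849 (0.774 to 0.931). Insig1, a retention protein that is itself an SREBP target, had 42.5 CPM in K14/hyal1 and 42.6 CPM in Control, a ratio of 0.997 (0.931 to 1.07). Its level was thus nearly equal, which places it 0.21 log2 units below the median gene. Insig2, the other retention protein, had 14.96 CPM in K14/hyal1 and 10.9 CPM in Control, a ratio of 1.37 (1.21 to 1.54). Stard4, a sterol transfer protein, had 78.6 CPM in K14/hyal1 and 69.4 CPM in Control, and the interval of its ratio, 1.08 to 1.19, holds that of the median gene. The 6 genes summed to 249 CPM in K14/hyal1 and 242 CPM in Control, a ratio of 1.03 (1.001 to 1.06), and their median log2 ratio was 0.09. Scaled to the median gene, the ratio of the sums turned to 0.876.

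Sterol enzymes are given in stages that follow the order of the pathway, though genes within a stage are not in reaction order. The stages were drawn with the values known. In the mevalonate arm, 6 of 7 genes had a ratio above 1, and the arm summed to 225 CPM in K14/hyal1 and 179 CPM in Control, a ratio of 1.26 (1.22 to 1.3). After scaling to the median gene, 5 of 7 did and the ratio of the sums was 1.07. Idi1, which isomerises isopentenyl diphosphate, was highest of the 32 with 24.2 CPM in K14/hyal1 (22.4 to 26.05) and 15.02 CPM in Control (14.1 to 16.03), a ratio of 1.61 (1.46 to 1.78). Acat2, the thiolase that opens the pathway, had 16.3 CPM in K14/hyal1 and 10.4 CPM in Control, a ratio of 1.56 (1.38 to 1.76). These were the genes past 1.5-fold on the log2(CPM + 1) scale, at chr13:8885501-8892451 and chr17:12942890-12960747.

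Hmgcs1, which makes HMG-CoA, had 149 CPM in K14/hyal1 (145 to 154) and 123 CPM in Control (119.8 to 125), a ratio of 1.22 (1.17 to 1.27), an interval that holds the median gene. The kinases Mvk (8.18 and 6.26 CPM) and Pmvk (7.31 and 5.54 CPM) had ratios of 1.31 and 1.32, with intervals that hold it as well. Fdps, which makes farnesyl diphosphate, had 12.9 CPM in K14/hyal1 and 11.2 CPM in Control, a ratio of 1.14 (1.01 to 1.301). Mvd, the decarboxylase between Pmvk and Idi1, was the exception of the arm with 6.96 CPM in K14/hyal1 and 7.53 CPM in Control, though its ratio of 0.925 (0.7797 to 1.09) holds 1.

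The next 3 reactions commit carbon to sterols, and here the lowest enzymes were found. Fdft1, squalene synthase, had 24.95 CPM in K14/hyal1 (23.2 to 26.8) and 34.9 CPM in Control (33.4 to 36.4), 1.399-fold lower (1.29 to 1.52). Lss, which closes the rings to give lanosterol, had 22.8 CPM in K14/hyal1 (21.1 to 24.6) and 33.4 CPM in Control (31.9 to 34.8), 1.46-fold lower (1.34 to 1.599), the lowest of the 32. Sqle, squalene epoxidase, which acts between them, had 44.4 CPM in K14/hyal1 and 42.1 CPM in Control, a ratio of 1.05 (0.986 to 1.13) that holds 1. Together the 3 summed to 92.2 CPM in K14/hyal1 and 110.4 CPM in Control, a ratio of 0.835 (0.798 to 0.873), or 0.71 after scaling to the median gene, where 0 of 3 were above 1. Fdft1 lies at chr14:63145150-63179578 and Lss at chr10:76531588-76557138.

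Enzymes after lanosterol were mixed, with 4 ratios above 1 and 3 below. Tm7sf2, a sterol reductase, had 6.96 CPM in K14/hyal1 and 4.77 CPM in Control, a ratio of 1.46 (1.22 to 1.76). Cyp51, the lanosterol demethylase, had 45.8 CPM in K14/hyal1 and 36.2 CPM in Control, a ratio of 1.27 (1.18 to 1.36). The remaining pair above 1 were closer to it: Sc5d, a sterol desaturase (31.5 and 26.3 CPM), and Nsdhl, a dehydrogenase of sterol demethylation (8.89 and 7.68 CPM), whose interval, 0.991 to 1.35, holds 1. Msmo1, the methylsterol monooxygenase, had 60.5 CPM in K14/hyal1 and 64.99 CPM in Control, a ratio of 0.931 (0.8798 to 0.985). Dhcr7, which reduces the last intermediate to cholesterol, had 30.1 CPM in K14/hyal1 and 32.99 CPM in Control, a ratio of 0.912 (0.841 to 0.988). Hsd17b7, a keto-reductase, was lowest of the stage with 10.8 CPM in K14/hyal1 and 12.8 CPM in Control, a ratio of 0.842 (0.736 to 0.961). The 7 genes summed to 195 CPM in K14/hyal1 and 186 CPM in Control, a ratio of 1.05 (1.01 to 1.08), and all 17 sterol enzymes to 512 CPM in K14/hyal1 and 475 CPM in Control, a ratio of 1.08 (1.06 to 1.1). Scaled to the median gene both ratios turned, to 0.891 and 0.917, with 3 of 7 and 8 of 17 genes above 1.

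**Figure D2:**
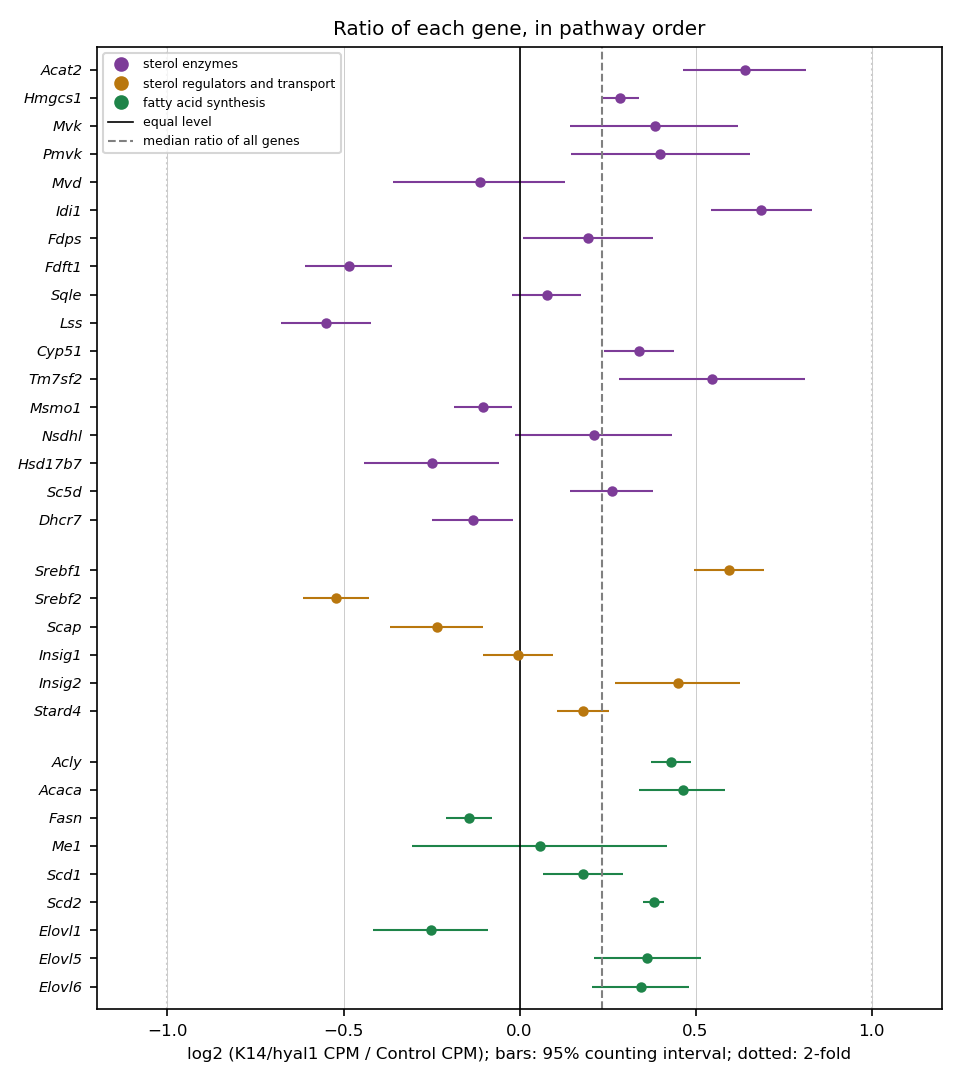
Plain log2 ratio of K14/hyal1 over Control CPM for each of the 32 genes in pathway order, with 95% counting intervals; the solid line is equality, the dashed line the median ratio of all genes, and the dotted lines 2-fold. Lss, Srebf2 and Fdft1 lie furthest left and Idi1, Acat2 and Srebf1 furthest right, and no interval reaches 2-fold.

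Among fatty acid genes, 7 of 9 had a ratio above 1, and 5 of 9 after scaling to the median gene, where Scd1 and Me1 turned. Their median log2 ratio was 0.33, against 0.19 for the sterol enzymes and 0.21 for all genes. Acly, which frees acetyl-CoA from citrate, had 141 CPM in K14/hyal1 (137 to 145) and 104 CPM in Control (102 to 107), a ratio of 1.35 (1.296 to 1.402). Acaca, acetyl-CoA carboxylase, had 31.2 CPM in K14/hyal1 and 22.6 CPM in Control, a ratio of 1.38 (1.27 to 1.5). Fasn, the synthase that makes palmitate from the products of both, had 93.7 CPM in K14/hyal1 (90.2 to 97.3) and 103 CPM in Control (101 to 106), a ratio of 0.906 (0.865 to 0.947). The first pair of enzymes was thus above the median gene and the synthase below it. Me1, cytosolic malic enzyme, which supplies NADPH, had 3.34 CPM in K14/hyal1 and 3.21 CPM in Control. It rested on 97 and 196 estimated reads and had a wide interval for its ratio, 0.808 to 1.34.

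Scd2, a stearoyl-CoA desaturase, which puts the first double bond into saturated fatty acids, had 503 CPM in K14/hyal1 (494 to 511) and 386 CPM in Control (381 to 391), a ratio of 1.302 (1.28 to 1.33). Scd1, its neighbour on chromosome 19 and the form that predominates in liver and fat, had 33.6 CPM in K14/hyal1 and 29.6 CPM in Control, a ratio of 1.13 (1.05 to 1.23). Of the 50-base words of Scd1, 3.03% also occur in Scd2. Of the elongases, Elovl5, which extends polyunsaturated chains, had 19.7 CPM in K14/hyal1 and 15.4 CPM in Control, and Elovl6, which extends palmitate, 24.2 CPM in K14/hyal1 and 19.03 CPM in Control. Elovl1, which makes very long saturated chains, was the lower one with 15.02 CPM in K14/hyal1 and 17.9 CPM in Control, a ratio of 0.8399 (0.7499 to 0.939). The 9 genes summed to 864 CPM in K14/hyal1 and 702 CPM in Control, a ratio of 1.23 (1.21 to 1.25), or 1.05 after scaling to the median gene. Without Scd2 the other 8 summed to 362 CPM in K14/hyal1 and 316 CPM in Control, a ratio of 1.15 (1.12 to 1.17), just under the 1.18 of the median gene.

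Levels of different genes can be compared per length, here per kb of the principal GENCODE transcript. Scd2 was highest at 92.1 CPM per kb in K14/hyal1 and 70.7 CPM per kb in Control, and Hmgcs1 next at 43.1 CPM per kb in K14/hyal1 and 35.4 CPM per kb in Control. Acly was above Msmo1 in K14/hyal1 and below it in Control: Acly had 32.1 CPM per kb in K14/hyal1 and 23.8 CPM per kb in Control, and Msmo1 29.6 CPM per kb in K14/hyal1 and 31.8 CPM per kb in Control. Me1 was lowest at 1.02 CPM per kb in K14/hyal1 and 0.976 CPM per kb in Control. In plain CPM, Scd2 alone made up 30.9% of the sum over all 32 genes in K14/hyal1 and 27.2% in Control, and that sum was 1625 CPM in K14/hyal1 and 1418 CPM in Control, a ratio of 1.15 (1.13 to 1.16). Scaled to the median gene, the ratio of the sums turned to 0.974.

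**Figure D3:**
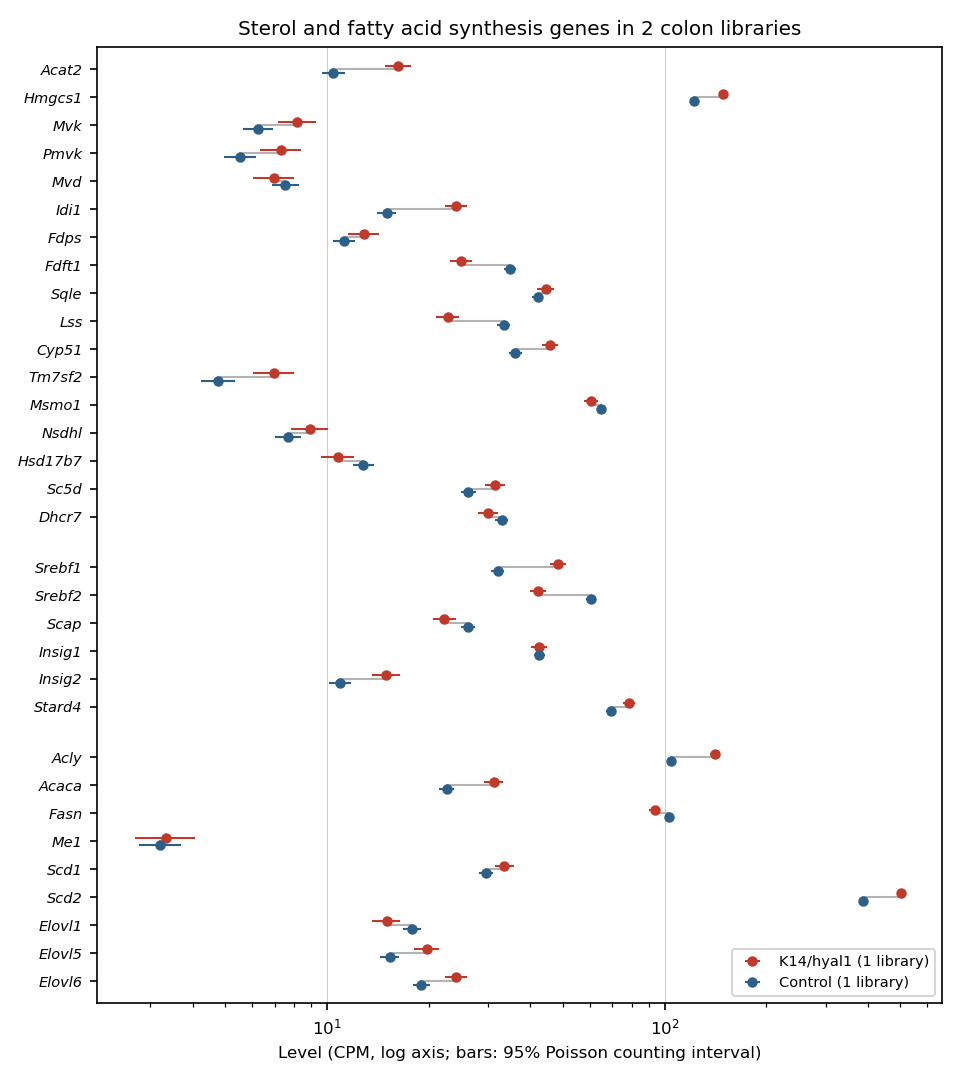
Level of each of the 32 genes in K14/hyal1 (red, upper point) and Control (blue, lower point), 1 library each, in CPM on a log axis and not divided by length, with 95% Poisson counting intervals. Levels run from Me1 (3.34 and 3.21 CPM in K14/hyal1 and Control) to Scd2 (503 and 386 CPM), and the gap within a gene is small beside the range between genes.

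The deposited rows are transcripts without identifiers, 136 for the 32 genes, and in 16 genes at least 2 rows each held over 10% of the gene's level in a library. Srebf1 had 12 rows, and most of its difference was in the sixth, with 23.1 CPM in K14/hyal1 and 10.1 CPM in Control. Its other 11 rows summed to 25.3 CPM in K14/hyal1 and 22.0 CPM in Control, a ratio of 1.15, and among them the fifth had 10.4 CPM in K14/hyal1 and 13.2 CPM in Control. Srebf1 is known to use separate promoters for its forms, but the rows cannot be assigned to them. In Lss the first of 8 rows had 3.503 CPM in K14/hyal1 and 0.152 CPM in Control, opposite to the gene as a whole, while the fourth had 6.25 CPM in K14/hyal1 and 12.2 CPM in Control.

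Mvd had the largest shift in share, with the first of 2 rows at 89.1% of the gene's level in K14/hyal1 and 51.9% in Control. Msmo1 and Fdps had such shifts although their gene sums differed little, at ratios of 0.931 and 1.14. The first row of Msmo1 had 27.6 CPM in K14/hyal1 and 15.6 CPM in Control, although the gene was slightly lower. The first row of Fdps had 6.62 CPM in K14/hyal1 and 3.43 CPM in Control, and the third 5.18 CPM in K14/hyal1 and 6.62 CPM in Control. The fifth row of Tm7sf2 held 48.6% of the gene's level in K14/hyal1 and 21.9% in Control. The second row of Mvk held 35.5% of the gene's level in K14/hyal1 and 56.2% in Control, and the second row of Pmvk, under 1 read in K14/hyal1, 0.0132% of the gene's level in K14/hyal1 and 23.2% in Control. In the other 8 of the 16 genes (Me1, Dhcr7, Acly, Acaca, Fasn, Elovl1, Sqle and Sc5d) the largest shift was between 2.19 and 11.3 percentage points. Among them, the seventh row of Acly had 96.6 CPM in K14/hyal1 and 63.8 CPM in Control and the sixth row of Fasn 60.4 CPM in K14/hyal1 and 60.3 CPM in Control. Row values lay within 0.1 of a whole read for 37.5% in K14/hyal1 and 36.4% in Control, so most row values are not whole reads, and no interval is given for a row.

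**Figure D4:**
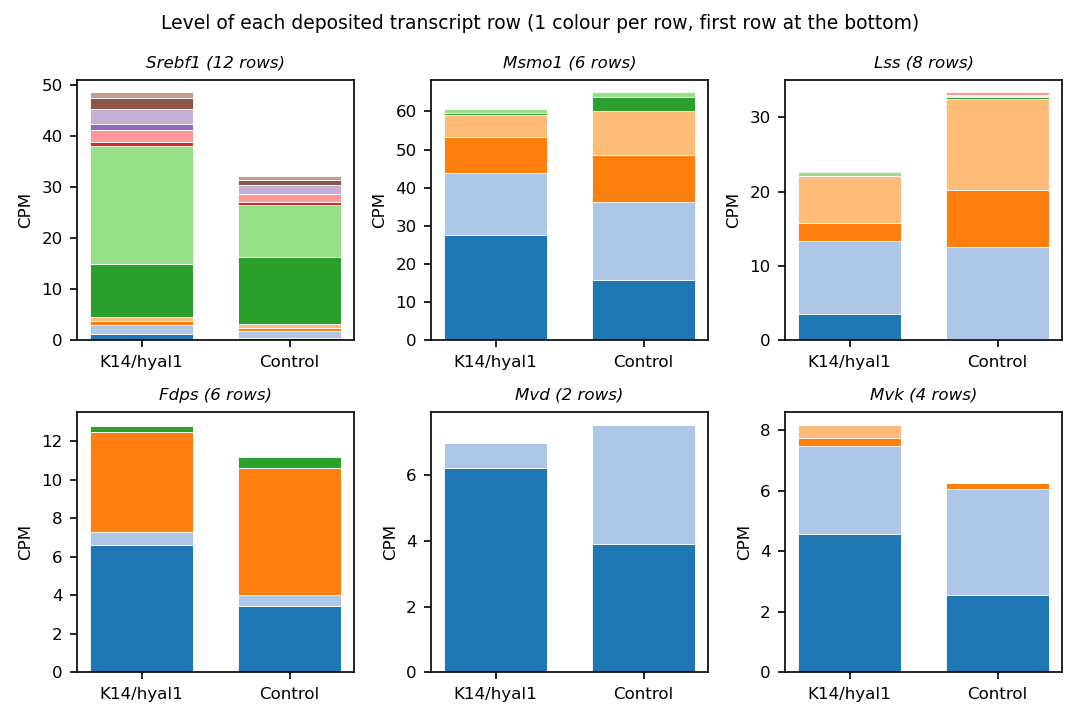
CPM of each deposited transcript row, stacked with the first row at the bottom and 1 colour per row, for Srebf1, Msmo1, Lss, Fdps, Mvd and Mvk in K14/hyal1 (left bar) and Control (right bar). The first row is the larger block of Mvd and Fdps in K14/hyal1, and in Srebf1 the sixth row (23.1 CPM in K14/hyal1 and 10.1 CPM in Control) makes up most of the difference in height.

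Some of these reads may belong to other genes. Acat2 shares 45.9% of its 50-base words with its neighbour Acat3 (4.28 and 3.38 CPM in K14/hyal1 and Control) and 13.2%, on the opposite strand, with Tcp1 (60.2 and 36.6 CPM). Idi1 shares 21.3% with Gm13502 (7.75 and 5.42 CPM), and Fdps 40.1% with Gm3571 (11.4 and 8.05 CPM). Fdps also shares 77.3% with Gm43738, which overlaps it on the same strand over 1124 exonic bases, and Acaca shares 52.6% with Gm5182. The values of Fdps and Acaca are therefore uncertain as well. Acat2 and Idi1, the genes past 1.5-fold on the log2(CPM + 1) scale, are likewise both uncertain in this respect. Fdft1 overlaps Ctsb, a lysosomal protease gene, on the opposite strand over 774 exonic bases, and Ctsb had 136 CPM in K14/hyal1 and 102 CPM in Control. Fdft1 also shares 10.9% of its words on the same strand with Gm6781 (10.2 and 12.6 CPM), which was lower in K14/hyal1, as Fdft1 was. Srebf1 overlaps Rai1 on the opposite strand over 109 exonic bases, and Rai1 had 14.9 CPM in K14/hyal1 and 23.02 CPM in Control. Tm7sf2 and Vps51 (16.9 and 18.3 CPM) overlap on the same strand over 532 exonic bases. The library kit keeps strand, but whether the counting used it is unknown here, and the part of these overlaps in the values was not tested. In all, 8 of the 32 shared over 10% of their words with another gene.

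The authors' deposited table gives 1 of the 32 genes a false discovery rate below 0.05, Scd2 at 0.0069, where 1.51% of 15869 genes were called higher and 0.756% lower. In the authors' deposited table the other 31 genes were above 0.4, with Acly next at 0.404, Srebf1 at 0.804 and Srebf2 at 0.81. The model behind these values is unknown, and with 1 library per group here its error term cannot be checked.

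Around the 32 genes, 6 further lists with 100 genes covered other steps of the same metabolism, and 91 passed the filter. Of these, 2 were at least 2-fold higher in K14/hyal1 and 0 lower, against the 3.75% and 1.54% of all genes, and their median log2 ratio was 0.25. These counts and the order within a list are on the log2(CPM + 1) scale. Other sterol and isoprenoid enzymes had 0 of 14 at 2-fold in either direction and a median of 0.26. The highest was Acat1, the mitochondrial thiolase, with 41.3 CPM in K14/hyal1 and 23.6 CPM in Control, though by plain ratio Fdx1, a ferredoxin, was higher (5.55 and 3.11 CPM), and the lowest Por, the electron donor of cytochrome P450 enzymes, with 34.1 CPM in K14/hyal1 and 41.7 CPM in Control. Genes of SREBP processing and turnover had 0 of 13 at 2-fold and a median of 0.28.

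Sterol uptake, efflux and storage had 18 of 20 genes past the filter, 1 at least 2-fold higher, 0 lower, and a median of 0.23. The higher one was Apoe, a lipid carrier abundant in macrophages, with 101 CPM in K14/hyal1 and 49.9 CPM in Control; macrophage markers were also higher, as given above, and their part was not tested. The lowest was Abcg1, a sterol exporter, with 4.101 CPM in K14/hyal1 and 7.02 CPM in Control. Other fatty acid genes had 21 of 25 past the filter, 1 at least 2-fold higher, 0 lower, and a median of 0.25. The higher one was Hsd17b12, the keto-reductase of elongation, with 23.4 CPM in K14/hyal1 and 11.03 CPM in Control, and the lowest was Acacb, the mitochondrial acetyl-CoA carboxylase, with 5.27 CPM in K14/hyal1 and 7.86 CPM in Control. Both calls were close to the threshold and were lost when the libraries were scaled to the median gene.

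Genes of NADPH and citrate supply had 9 of 10 past the filter, 0 at 2-fold and a median of 0.18. They ran from Mdh1, cytosolic malate dehydrogenase (58.8 and 34.1 CPM in K14/hyal1 and Control), to Pgd of the pentose phosphate pathway (43.4 and 63.5 CPM). Genes of acyl-CoA and glycerolipid synthesis had 16 of 18 past the filter, 0 at 2-fold and a median of 0.08. They ran from Acsl4, an acyl-CoA synthetase (17.4 and 8.69 CPM), whose plain ratio of 2.01 is just past 2-fold, to Dgat2, which makes triglyceride (7.72 and 11.3 CPM).

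**Figure D5:**
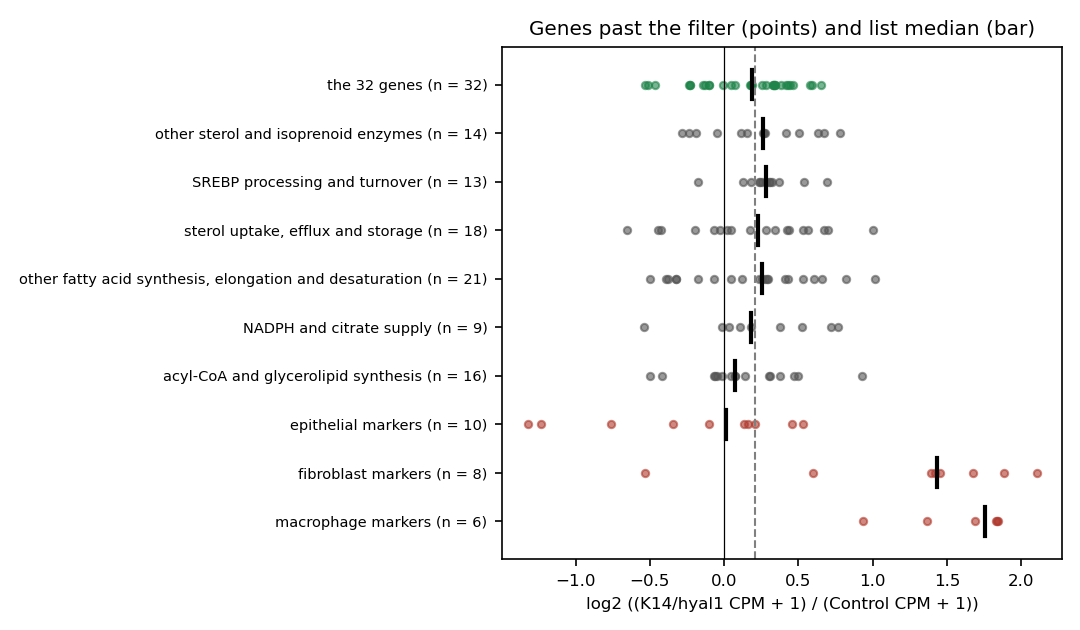
Log2 ratios of K14/hyal1 over Control, with 1 CPM added, for genes past the filter (points) and their median (black bar) in the 32 genes (green), the 6 further pathway lists (grey) and 3 lists of cell type markers (red); the dashed line is the median of all genes, 0.21. Pathway medians lie between 0.08 and 0.28, while those of the fibroblast and macrophage markers are 1.43 and 1.76.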

How the data were processed

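RNA of 1 K14/hyal1 and 1 Control library was extracted with a PureLink kit and made into libraries with a TruSeq Stranded mRNA kit, per the labels' protocols. The submitters' processing notes name Partek and mm10, and give no aligner or counting rule here. The main deposited table holds 72178 transcript rows with no named unit. Its deposited values were taken to be CPM: in each library, low values fell on multiples of a step of 0.0345 CPM in K14/hyal1 and 0.0164 CPM in Control. The columns summed to 475975 CPM in K14/hyal1 and 416434 CPM in Control, so part of each library lies outside the table. The table as a whole thus has a ratio above 1 before any scaling, and unscaled ratios are to be read with that. After an offset of 0.0001 was subtracted per row, rows were added up per symbol. Among gene values of at most 300 reads, 82.9% and 81.6% were within 0.1 of a whole read, so reads are estimates and a count model was not used. The authors deposited a gene table too, giving a ratio, mean CPM, p-values, a fold change score with a sign, and false discovery rates.

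Log2 ratios had 1 CPM added, which understates differences of low genes; 2-fold was the call. The filter was the median of mean CPM over 27116 symbols above 0. Poisson intervals for levels and Clopper-Pearson intervals for ratios came from estimated reads, which carry no molecular identifiers. The ratio step was tested on simulated data. The 32 genes, the lists and the stages were chosen with earlier results of these data known. All 32 are described; in other pathway lists the highest, the lowest and those at 2-fold are named, except for 1 list whose named genes are not reported here, and transcript rows where at least 2 rows held over 10% of a gene. A sheet on the mm10 transcriptome, of uncertain unit, and a skin sheet were not used here. Coordinates and lengths are from GENCODE M21. The software was Python (3.11.15) with pandas (2.3.3), numpy (2.4.6), scipy (1.17.1) and matplotlib (3.10.9).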

Additional observations from a re-analysis of the deposited data

How the results depend on the processing

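No paired analysis was possible because each group had 1 library, and for the same reason no library could be left out. Scaling moved the medians most. The median log2 ratio of the 32 genes (0.18) was -0.027 when scaled to the median gene, -0.027 by TMM factors and 0.034 for totals without the 20 most abundant genes. In the same order of scalings, medians were -0.019, -0.018 and 0.041 for sterol enzymes, -0.14, -0.14 and -0.075 for regulators and 0.10, 0.11 and 0.17 for fatty acid genes. The log2 ratios of summed levels were -0.12, -0.12 and -0.057 for sterol enzymes, -0.19, -0.19 and -0.12 for regulators and 0.067, 0.068 and 0.13 for fatty acid genes. The sign of single genes differed for 6, 6 and 2 of 32: Sqle and Me1 under all 3, and Fdps, Nsdhl, Stard4 and Scd1 under the first 2. These scalings multiply 1 library by 1 factor, so the order of genes by plain ratio is the same under each. Srebf1, Idi1 and Acat2 stayed above 0 and Srebf2, Fdft1 and Lss below 0 under every alternative run on single genes. Other genes kept their sign as well, among them Acly, Acaca, Scd2, Scap and Elovl1. Srebf2 and Fdft1 have 1 row each, so taking the highest transcript row could not move them.

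With the highest transcript row in place of the sum, 2 of the 32 genes passed 2-fold, both higher, Srebf1 (1.13) and Tm7sf2 (1.10), and summed log2 ratios were 0.25 for sterol enzymes and 0.36 for fatty acid genes. The sign differed for 6 genes, Fdps, Mvd, Dhcr7, Msmo1, Insig1 and Fasn, so that 25 lay above 0 and 7 below, against 21 and 11; Fdps was at -0.30, Msmo1 at 0.78 and Mvd at 0.55. At 1.5-fold the count of higher genes was 2. As a mean, fatty acid genes were at 0.20. Leaving out each of the 32 genes in turn gave medians from 0.18 to 0.19. Leaving out the 8 genes that share sequence words, an alternative chosen after seeing the data, put the summed log2 ratio of sterol enzymes at 0.019. Of the further lists, the count of genes at least 2-fold higher was 0 with a pseudocount of 10 and under each of the 3 scalings, and 1 with the highest row. Promoters with the looser sterol element were 7. The causes were not tested beyond what each alternative's construction shows. Depth limits Me1 most, at 97 estimated reads.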
